A study of Caenorhabditis elegans with 23 samples.

Results

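The proteasome subunit genes of Caenorhabditis elegans were taken here as all genes whose annotated symbol begins with pas, pbs, rpt or rpn followed by a hyphen and a digit. The rule named 33 of 17118 measured genes, and all 33 had a probe set. They comprised 7 alpha ring genes (pas-1 to pas-7) and 7 beta ring genes (pbs-1 to pbs-7) of the 20S core. The 19S cap was covered by 6 ATPase genes (rpt-1 to rpt-6), 4 other base genes (rpn-1, rpn-2, rpn-10 and rpn-13) and 9 lid genes (rpn-3, rpn-5, rpn-6.1, rpn-6.2, rpn-7, rpn-8, rpn-9, rpn-11 and rpn-12).

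The proteasome is the barrel-shaped protease that breaks down proteins tagged with ubiquitin. Its beta rings hold the cutting sites, its alpha rings gate the entrance, and the cap binds the ubiquitin tag, removes it, and unfolds and feeds in the substrate. In C. elegans the proteasome is needed in the germline for meiotic progression and for clearing maternal proteins when the oocyte becomes an embryo. Germline-deficient glp-1 worms live long and have been described elsewhere as having raised proteasome activity and a raised level of rpn-6.1, the lid subunit that joins cap to core.

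The study measured RNA from whole worms on 23 single-colour arrays in 8 groups, asking which genes answer to ash-2 RNAi and whether that answer needs a germline. ASH-2 is a subunit of a complex that methylates lysine 4 of histone H3. The worms were N2 wild type (WT) or carried glp-1(e2141ts). This temperature-sensitive allele weakens the Notch receptor on which dividing germline stem cells depend, and per the series text the mutants still make a few meiotic germ cells. Both genotypes received either the empty vector (EV) or ash-2 RNAi, were grown at 20 degrees Celsius, and were collected as L3 larvae or on day 8, giving 4 groups at each age, 1 for every pairing of genotype and treatment. Each group held 3 arrays, except day 8 WT EV, which held 2 because the submitters excluded replicate 3 for quality. Whether the replicates came from separate cultures is not given in the sources used here, so p-values measure the spread between these arrays, and their number limits the precision. Values are log2 intensities, at the probe set of each gene with the highest mean over all arrays, and a change is a difference of log2 intensities. A change passed when its Benjamini-Hochberg adjusted p over all probe sets, from a limma fit of the 4 groups of 1 age, was under 0.05.

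Array medians were 5.72 to 5.91 at L3 and 4.89 to 5.01 on day 8, so levels at different ages were not taken to be on a common scale. Of the 4 probe sets for ash-2, 3 that are flagged as shared by the suffix of their names rose by 4.54 to 8.29 under RNAi in all 4 comparisons. The remaining one had changes of -0.24 to -1.82, and passed on day 8 in WT alone (log2 change -1.82, adjusted p = 0.000235). The arrays labelled L3 held the adult cuticle collagen gene col-19 at group means of 11.8 to 12.4 and the sperm protein gene msp-77 at 12.6 to 13.5.

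Across the 33 genes the mean log2 level was 10.74 ± 0.07 (SD, n = 3) in L3 WT EV, 10.74 ± 0.04 (n = 3) in L3 WT ash-2 RNAi, 10.22 ± 0.10 (n = 3) in L3 glp-1 EV and 10.29 ± 0.02 (n = 3) in L3 glp-1 ash-2 RNAi. On day 8 it was 10.89 ± 0.05 (n = 2) in WT EV, 10.97 ± 0.03 (n = 3) in WT ash-2 RNAi, 9.72 ± 0.03 (n = 3) in glp-1 EV and 9.67 ± 0.08 (n = 3) in glp-1 ash-2 RNAi. At both ages every WT array lay above every glp-1 array, and the arrays with and without RNAi lay close together within a genotype.

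**Figure D1:**
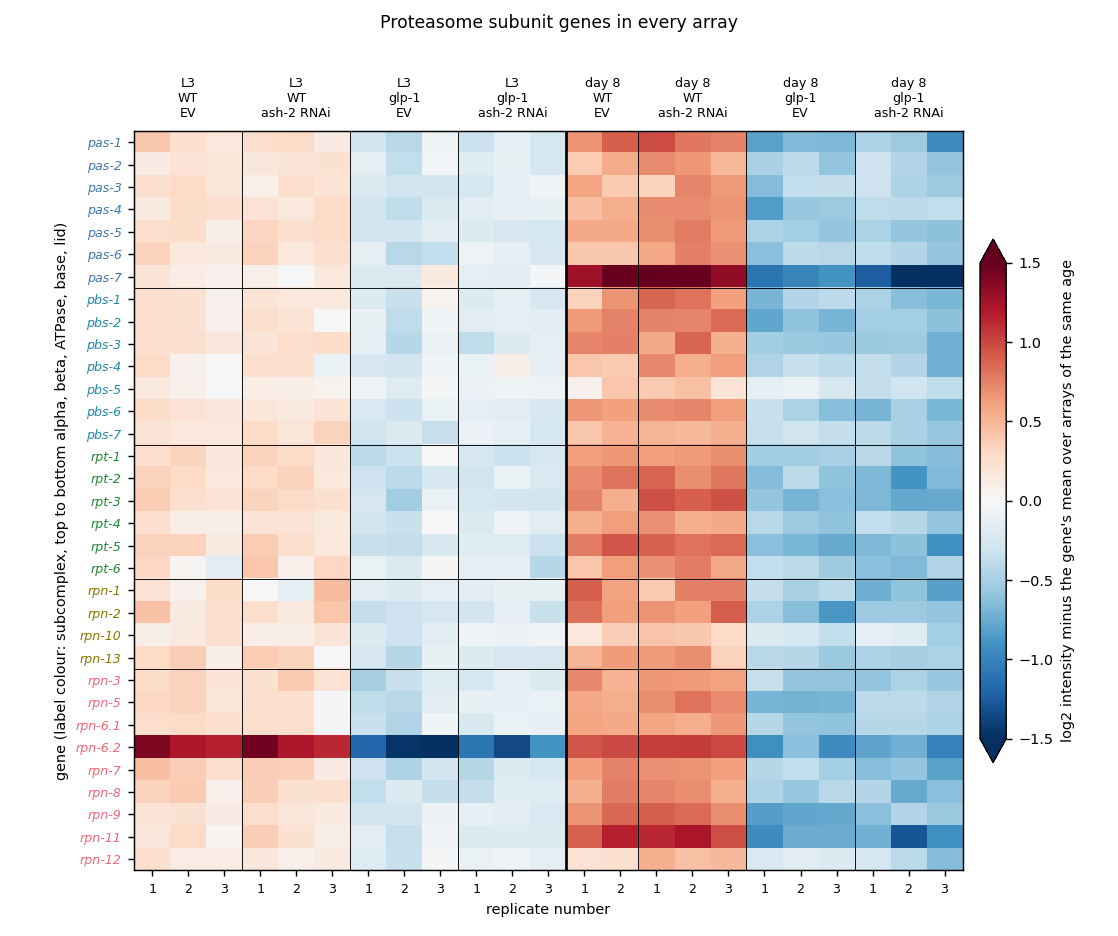
Each cell is the log2 intensity of 1 gene in 1 array minus that gene's mean over the arrays of the same age; rows are the 33 genes by subcomplex and columns the 23 arrays by group. Cells beyond 1.5 in either direction take the end colours, as for rpn-6.2 at L3 and pas-7 on day 8, and at each age the WT arrays are mostly red and the glp-1 arrays mostly blue, with a wider range on day 8.

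Proteasome genes were lower in glp-1 than in WT worms, modestly at L3 and by more than a factor of 2 for most of them on day 8. Under EV at L3, 30 of the 33 fell and none rose, with a median log2 change of -0.46, while 23.2% of all genes fell, 33.9% rose and the median of all genes was 0.11. Under ash-2 RNAi at L3, 29 fell and none rose, with a median of -0.41, beside 22% of all genes that fell and 28.8% that rose, and a median of all genes of 0.07. On day 8 all 33 fell under EV (median -1.13) and all 33 under ash-2 RNAi (median -1.26). In the same day 8 comparisons 26.5% of all genes fell and 28.9% rose under EV, and 25.1% fell and 28.7% rose under RNAi, with medians of 0.04 and 0.07. The comparisons at 1 age share no array, because those under EV and under RNAi use different groups. They do share the fit and its estimate of the spread, so their p-values are not independent.

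All glp-1 arrays lay below all WT arrays for 31 of the 33 genes in each L3 comparison and for 33 in each day 8 comparison. Over all genes, the same complete separation below WT was found for 24.1% under EV and 24.9% under RNAi at L3, and for 32.2% and 28.4% on day 8. Among the 1712 genes with the brightest probe sets (10% of genes, 31 of the 33 proteasome genes included), 24.1% and 22.3% fell at L3 under EV and RNAi, and 38.8% and 37% on day 8. Brightness here depends on the probes as well as on the RNA. RNA came from whole worms, so a smaller share of germ cells and less RNA per cell cannot be told apart.

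The alpha ring genes encode the outer rings of the core. At L3 under EV, 6 of 7 fell (median -0.51), from pas-2 at -0.36 to pas-1 at -0.53, and pas-7 did not pass. On day 8 under EV all 7 fell (median -1.09), with pas-6 at -0.88 and pas-1 at -1.495. For pas-5, WT EV arrays at L3 read 11.33, 11.35 and 11.16 and glp-1 EV arrays 10.79, 10.79 and 10.91. Under ash-2 RNAi pas-5 read 11.40, 11.32 and 11.35 in WT and 10.88, 10.82 and 10.81 in glp-1. The genotypes did not overlap under either treatment, and the change passed under both (EV -0.46 ± 0.08 SE, adjusted p = 0.000211; RNAi -0.52 ± 0.08, adjusted p = 0.000105).

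The alpha subunit pas-7 (read at a probe set flagged as shared) had the smallest L3 change of its ring and the largest day 8 change. At L3 its WT EV arrays read 9.98, 9.90 and 9.86 and its glp-1 EV arrays 9.57, 9.58 and 9.94, so that the third glp-1 array lay among the WT arrays. The L3 RNAi arrays were 9.87, 9.79 and 9.95 in WT and 9.64, 9.62 and 9.77 in glp-1. Neither L3 difference passed (EV -0.22, adjusted p = 0.0888; RNAi -0.19, adjusted p = 0.144). On day 8 pas-7 read 10.04 and 10.46 in WT EV against 7.67, 7.77 and 7.88 in glp-1 EV. Under ash-2 RNAi on day 8 it read 10.33, 10.32 and 10.09 in WT against 7.53, 7.24 and 7.12 in glp-1. A gap of more than 2 log2 units separated the genotypes on day 8, which made pas-7 the gene with the largest measured day 8 change of the 33. It was 5.59-fold lower in glp-1 under EV (-2.48 ± 0.16 SE, adjusted p = 1.05e-07) and 7.73-fold lower under RNAi (-2.95 ± 0.15, adjusted p = 9.70e-09).

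The beta ring genes had the smallest L3 median of the subcomplexes under EV (-0.36, 6 of 7 passing) and a day 8 median of -1.02, where all 7 passed. Of these, pbs-1, pbs-2 and pbs-5 encode the subunits that cut proteins. The caspase-like subunit pbs-1 read 11.03, 11.002 and 10.84 in L3 WT EV, 10.99, 10.94 and 10.94 in L3 WT ash-2 RNAi, 10.57, 10.45 and 10.83 in L3 glp-1 EV and 10.57, 10.63 and 10.53 in L3 glp-1 ash-2 RNAi. Its day 8 arrays read 10.70 and 11.03 in WT EV, 11.23, 11.17 and 10.97 in WT ash-2 RNAi, 9.65, 9.92 and 9.97 in glp-1 EV and 9.88, 9.72 and 9.67 in glp-1 ash-2 RNAi. No glp-1 array reached the lowest WT array of its age and treatment, and the change was -0.34 at L3 and -1.02 on day 8 under EV.

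For pbs-2, the trypsin-like subunit, L3 arrays read 11.12, 11.09 and 10.94 in WT EV, 11.13, 11.07 and 10.87 in WT ash-2 RNAi, 10.76, 10.49 and 10.81 in glp-1 EV and 10.70, 10.72 and 10.71 in glp-1 ash-2 RNAi. Day 8 arrays read 11.35 and 11.46 in WT EV, 11.46, 11.44 and 11.56 in WT ash-2 RNAi, 9.93, 10.11 and 10.01 in glp-1 EV and 10.20, 10.20 and 10.09 in glp-1 ash-2 RNAi. Here too the genotypes were fully separated at both ages, by 0.36 at L3 and by 1.38 on day 8 under EV as group means.

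The chymotrypsin-like subunit pbs-5 (read at a shared probe set) had the smallest day 8 EV change of the 33 genes. It read 11.30, 11.23 and 11.16 in L3 WT EV, 11.26, 11.25 and 11.21 in L3 WT ash-2 RNAi, 11.10, 10.96 and 11.13 in L3 glp-1 EV and 11.07, 11.09 and 11.07 in L3 glp-1 ash-2 RNAi. The groups did not overlap, but the L3 changes missed the threshold (EV -0.17, 95% interval -0.33 to -0.0061, adjusted p = 0.0738; RNAi -0.16, adjusted p = 0.0896). On day 8 it read 10.84 and 11.20 in WT EV, 11.18, 11.22 and 10.98 in WT ash-2 RNAi, 10.65, 10.68 and 10.54 in glp-1 EV and 10.43, 10.48 and 10.40 in glp-1 ash-2 RNAi. It fell by 0.40 under EV (adjusted p = 0.0215) and by 0.69 under RNAi (adjusted p = 0.000302). The EV call was not firm. Without the WT array of replicate 2 the change was -0.22. The call was also lost without glp-1 EV replicate 3 (-0.36, adjusted p = 0.0620) and with only the arrays compared in the fit (adjusted p = 0.0677). The structural beta genes pbs-3, pbs-4, pbs-6 and pbs-7 changed on day 8 under EV by -1.29, -0.80, -1.12 and -0.79.

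The 6 ATPase genes encode the ring that unfolds substrates. At L3 under EV 5 of them fell (median of the 6, -0.53), and rpt-6 did not pass (-0.16, 95% interval -0.44 to 0.12). Under ash-2 RNAi at L3 all 6 fell, rpt-6 by 0.50. On day 8 all 6 fell under both treatments, with medians of -1.22 and -1.39. For rpt-3 the day 8 RNAi arrays read 12.12, 12.05 and 12.10 in WT and 10.48, 10.38 and 10.40 in glp-1. These 2 groups were tight and far apart, and rpt-3 was 3.19-fold lower in glp-1 (-1.67 ± 0.09 SE, adjusted p = 2.57e-08). The largest EV change on day 8 among the ATPases was that of rpt-5 (-1.55), followed by rpt-2 (-1.31), rpt-3 (-1.29), rpt-1 (-1.15), rpt-4 (-1.11) and rpt-6 (-0.96).

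The other base genes are the scaffolds rpn-1 and rpn-2 and the ubiquitin receptors rpn-10 and rpn-13. At L3 under EV all 4 fell (median -0.46), and under ash-2 RNAi 3 did, rpn-1 at -0.24 being the exception (adjusted p = 0.149). The L3 RNAi call of rpn-10 (-0.20) was lost whichever array was left out (adjusted p = 0.0709 to 0.135). The L3 EV call of rpn-1 was lost with any glp-1 array, or WT replicate 1 or 3, left out (adjusted p = 0.0531 to 0.101). On day 8 all 4 fell under both treatments. The receptor rpn-10 had a small day 8 change (-0.54 under EV, -0.64 under RNAi) while the receptor rpn-13 changed by -1.04 under both, rpn-1 by -1.17 and -1.35, and rpn-2 by -1.39 and -1.29. Without replicate 2 of day 8 WT EV, rpn-10 changed by -0.44 and no longer passed (adjusted p = 0.0581).

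All 9 lid genes fell in each of the 4 comparisons of glp-1 with WT, with medians of -0.59 and -0.43 at L3 and -1.13 and -1.27 on day 8 under EV and RNAi. The L3 RNAi call of rpn-12 (-0.23) was lost whichever array was left out (adjusted p = 0.0616 to 0.131). That of rpn-5 was lost with any glp-1 array, or WT replicate 1 or 2, left out (adjusted p = 0.0692 to 0.136). Centring on array medians also ended both calls (adjusted p = 0.121 for rpn-12 and 0.106 for rpn-5). For rpn-7 the L3 EV arrays read 11.23, 11.15 and 11.04 in WT and 10.47, 10.31 and 10.51 in glp-1, and the RNAi arrays 11.15, 11.14 and 10.91 in WT and 10.36, 10.58 and 10.52 in glp-1. For rpn-3 the L3 EV arrays read 10.85, 10.92 and 10.77 in WT and 10.08, 10.24 and 10.39 in glp-1. Both lid scaffold genes were fully separated by genotype, with changes of -0.71 ± 0.10 SE for rpn-7 (adjusted p = 3.30e-05) and -0.61 ± 0.09 for rpn-3 (adjusted p = 7.35e-05) under EV.

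The lid genes rpn-9 and rpn-11 showed large day 8 differences. Day 8 EV arrays of rpn-9 read 11.10 and 11.29 in WT and 9.60, 9.65 and 9.66 in glp-1 (L3 EV arrays 10.54, 10.56 and 10.46 against 10.06, 10.06 and 10.25). The deubiquitinase gene rpn-11, whose product removes the ubiquitin chain, read 10.80 and 11.07 in day 8 WT EV and 8.97, 9.16 and 9.17 in day 8 glp-1 EV (L3 EV arrays 10.14, 10.26 and 9.99 against 9.81, 9.61 and 9.91). Both genes were separated by genotype at both ages, and by far more on day 8. The changes were -0.40 at L3 and -1.56 on day 8 for rpn-9 and -0.35 and -1.83 for rpn-11. At the other end, rpn-12 fell by 0.43 on day 8 under EV, a call that was lost without replicate 2 of WT EV (adjusted p = 0.0546), and by 0.93 under RNAi. The remaining lid genes rpn-5 and rpn-8 changed by -1.26 and -1.13 on day 8 under EV, and by -0.60 and -0.59 at L3.

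The lid gene rpn-6.1 (read at a shared probe set), which encodes the clamp between cap and core, was lower in glp-1 in all 4 comparisons. It read 10.29, 10.33 and 10.27 in L3 WT EV, 10.30, 10.29 and 10.004 in L3 WT ash-2 RNAi, 9.70, 9.58 and 9.96 in L3 glp-1 EV and 9.79, 9.93 and 9.90 in L3 glp-1 ash-2 RNAi. Its day 8 arrays read 11.26 and 11.23 in WT EV, 11.26, 11.21 and 11.32 in WT ash-2 RNAi, 10.24, 10.08 and 10.06 in glp-1 EV and 10.24, 10.24 and 10.20 in glp-1 ash-2 RNAi. The genotypes did not overlap at either age. The changes were -0.55 ± 0.11 SE (adjusted p = 0.00059) and -0.32 ± 0.11 (adjusted p = 0.0218) at L3 under EV and RNAi, and -1.12 ± 0.10 (adjusted p = 1.69e-06) and -1.03 ± 0.09 (adjusted p = 1.28e-06) on day 8. Leaving out glp-1 ash-2 RNAi replicate 1 or WT ash-2 RNAi replicate 1 or 2 ended the L3 RNAi call (adjusted p = 0.0770, 0.0895 and 0.0850). Centring on array medians ended it too (-0.25, adjusted p = 0.0515).

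Its paralog rpn-6.2 (read at a probe set of its own) had the largest measured L3 change of the 33. Its L3 arrays read 8.65, 8.46 and 8.40 in WT EV, 8.69, 8.46 and 8.37 in WT ash-2 RNAi, 6.06, 5.77 and 5.68 in glp-1 EV and 6.16, 5.89 and 6.35 in glp-1 ash-2 RNAi. On day 8 they read 6.63 and 6.67 in WT EV, 6.72, 6.73 and 6.67 in WT ash-2 RNAi, 4.76, 5.05 and 4.74 in glp-1 EV and 4.89, 4.97 and 4.67 in glp-1 ash-2 RNAi. No glp-1 array reached a WT array of its age. The glp-1 values lay near the medians of their own arrays at both ages (5.72 to 5.84 at L3 and 4.96 to 5.01 on day 8), so the gene was dim in glp-1 and the true differences may be larger than those read. The measured changes were -2.66 ± 0.13 SE (adjusted p = 5.32e-09) and -2.37 at L3 under EV and RNAi and -1.80 and -1.87 on day 8, and no fold is given for them.

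**Figure D2:**
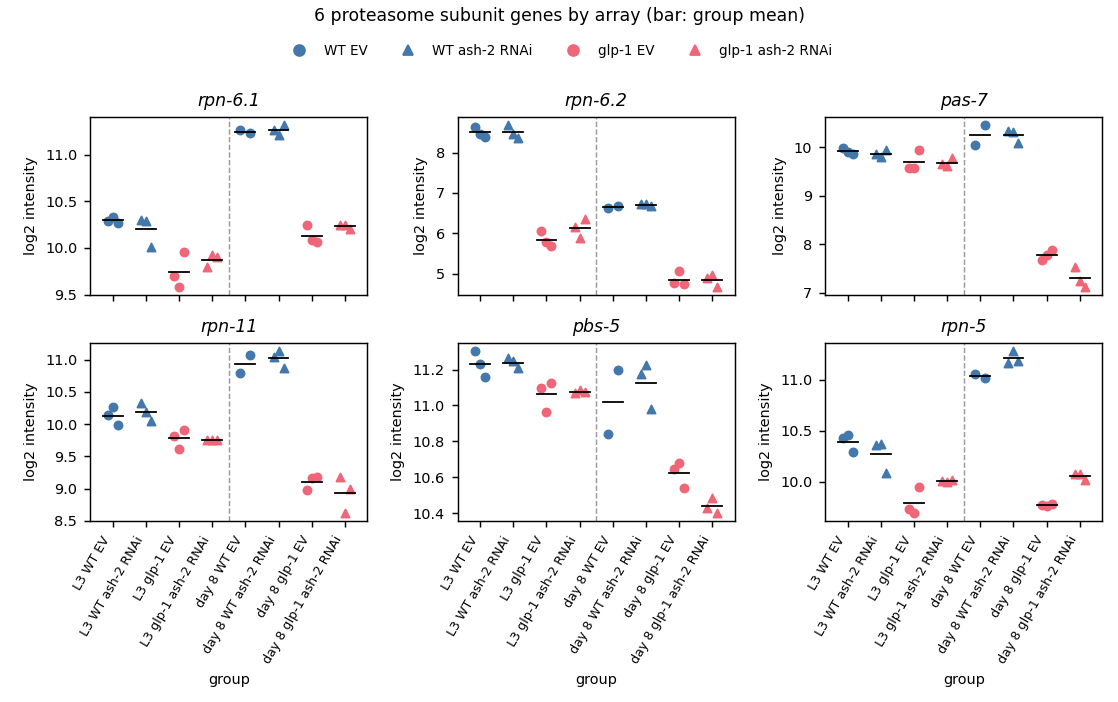
Log2 intensity in every array for 6 of the genes, with groups on the x axis, circles for EV, triangles for ash-2 RNAi, blue for WT, red for glp-1 and a bar at each group mean; a dashed line parts the ages, whose levels are not on a common scale. The vertical ranges differ between panels: rpn-6.2 has its widest gap between genotypes at L3, pas-7 and rpn-11 on day 8, and for rpn-5 the day 8 glp-1 triangles lie above the circles.

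**Figure D3:**
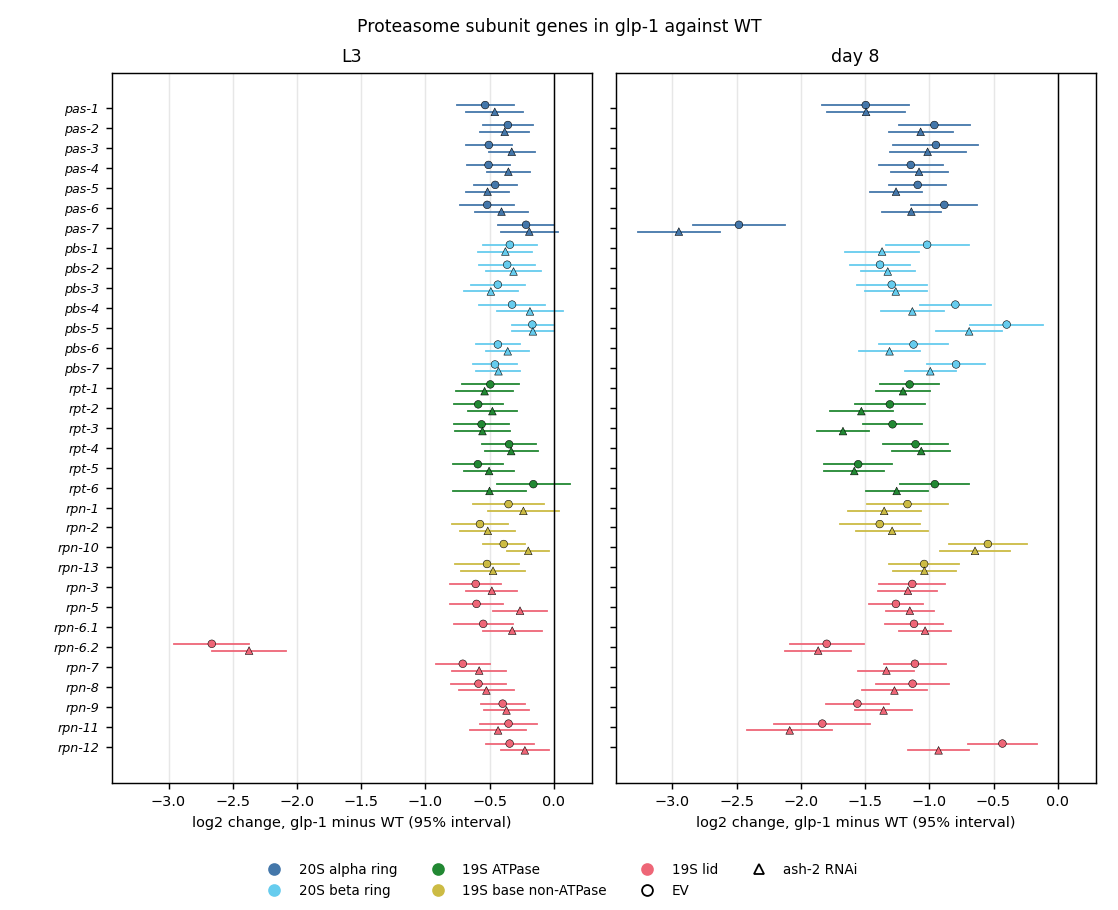
Log2 change in glp-1 against WT for the 33 genes, at L3 on the left and day 8 on the right, with circles for EV, triangles for ash-2 RNAi and bars for 95% intervals from the limma fit; colours mark the subcomplexes. All points lie below 0, most between -0.7 and -0.2 at L3 and between -1.7 and -0.8 on day 8, with rpn-6.2 apart at L3 and pas-7 apart on day 8.

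The genotype difference was tested for a change with age as an interaction under EV, in a fit of all 23 arrays that takes each difference within its own age. A shift common to both genotypes at 1 age drops out of it, but array medians moved differently with age in WT and glp-1, and centring on them shifted this interaction by -0.18 for all probe sets. The glp-1 difference was larger on day 8 for 29 of the 33 genes (median interaction -0.66), and with the centring for 31 (median -0.84). The interaction of rpn-6.2 passed in the other direction (0.86 ± 0.20 SE, adjusted p = 0.00075), but with its glp-1 arrays near the array medians at both ages it cannot be read as a smaller difference on day 8. Over all genes 28.2% had a lower and 25.8% a higher interaction. The smallest adjusted p belonged to pas-7 (-2.27 ± 0.19, adjusted p = 3.66e-09), rpn-9 (-1.16 ± 0.13, adjusted p = 1.43e-07) and rpn-11 (-1.48 ± 0.19, adjusted p = 1.56e-06), whose arrays are given above. The genes that did not pass were pbs-5 (-0.23), rpn-10 (-0.15) and rpn-12 (-0.09), the same genes that changed least on day 8 under EV. For 2 genes the call depended on the probe set read. The other set of rpn-10 passed by limma (-0.43, adjusted p = 0.0394), and the other set of pbs-3 did not (-0.29, adjusted p = 0.198). By subcomplex, all 7 alpha genes, 6 of 7 beta genes, all 6 ATPase genes, 3 of 4 other base genes and 7 of 9 lid genes had a lower interaction.

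Under ash-2 RNAi the measured differences of the proteasome genes were small and 1 passed in the 4 comparisons. The arrays showed a lower ash-2 signal past the threshold in day 8 WT alone, at 1 of its 4 probe sets. In WT worms at L3 no gene passed in either direction by limma, none had an unadjusted p under 0.05, and the changes ran from -0.12 to 0.20 (median 0.0050), with 95% intervals inside -0.35 to 0.49. In glp-1 worms at L3 none passed, 2 had an unadjusted p under 0.05, and the changes ran from -0.14 to 0.30 (median 0.05). In WT worms on day 8 none passed, 2 had an unadjusted p under 0.05, and the changes ran from -0.12 to 0.29 (median 0.05, or 0.13 without WT EV replicate 2), with intervals inside -0.43 to 0.58. Of all genes, 0.181% rose and 0.129% fell in L3 WT, 0.537% and 0.339% in L3 glp-1, and 0.613% and 0.905% in day 8 WT.

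In glp-1 worms on day 8, ash-2 RNAi raised 1 of the 33 genes and lowered none, beside 7.79% of all genes that rose and 7.95% that fell. This gene was rpn-5, a lid scaffold, which read 9.77, 9.76 and 9.78 under EV and 10.08, 10.07 and 10.02 under RNAi. The groups did not overlap, and the change was 0.29 ± 0.09 SE (adjusted p = 0.0470). The call was lost with a replicate block (adjusted p = 0.0870) and whenever any single array of the comparison was left out (adjusted p = 0.0600 to 0.107), as well as with the dimmest probe sets left out (adjusted p = 0.0749) and with only the arrays compared in the fit (adjusted p = 0.149). In the opposite direction, pas-7 differed by -0.47 ± 0.15 (adjusted p = 0.0521), with its RNAi arrays all below its EV arrays, and without RNAi replicate 1 it passed (-0.59, adjusted p = 0.0257). Over the 33 genes 6 had an unadjusted p under 0.05, and the changes ran from -0.47 to 0.29 (median -0.04).

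The active-site genes differed under RNAi by -0.03 to 0.26 in the WT comparisons and by -0.18 to 0.14 in the glp-1 comparisons, and none of these differences passed. The difference between genotypes in the response to RNAi passed for none of the 33 genes at L3 (0 of all genes passed by limma, and 1 of the 33 had an unadjusted p under 0.05). On day 8 it passed for none of the 33 either (2 had an unadjusted p under 0.05), beside 2.59% of all genes that passed as higher and 1.78% as lower. The largest such difference on day 8 was for rpn-12 (0.50, adjusted p = 0.129). The response to RNAi differed between ages for none of the 33 genes in WT (1 at an unadjusted p under 0.05; 0.59% of all genes higher and 1% lower) and for none in glp-1 (5 at an unadjusted p under 0.05; 4.5% higher and 5.85% lower).

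**Figure D4:**
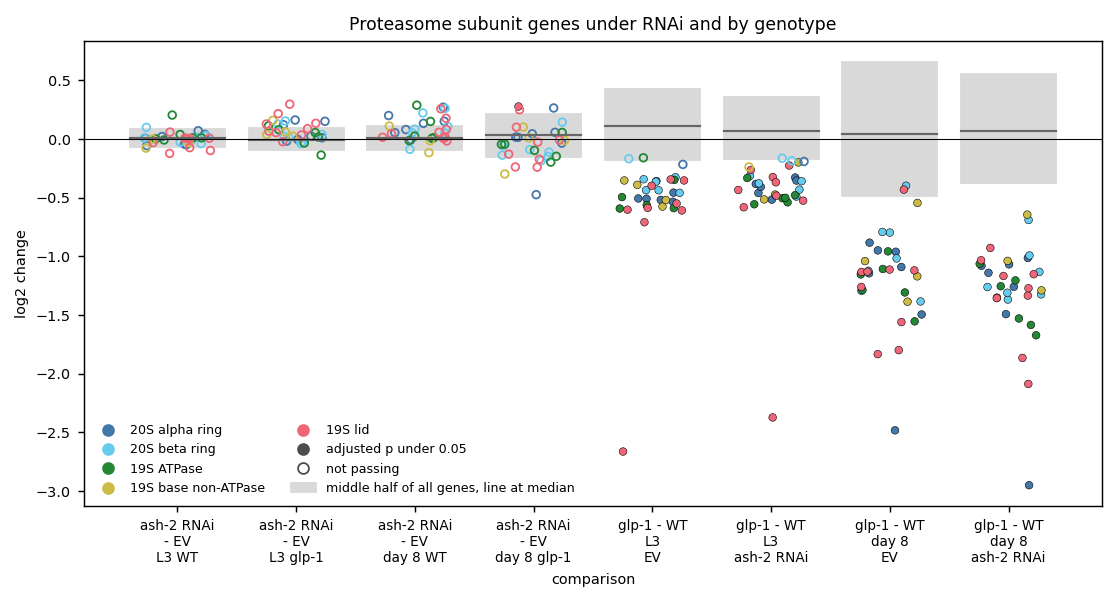
Log2 change of each of the 33 genes (points, coloured by subcomplex, filled where the adjusted p was under 0.05) in the 4 RNAi comparisons and the 4 comparisons of glp-1 with WT; grey bands span the interquartile range of all 17118 genes, with a line at their median. In the RNAi comparisons the points lie around 0 and 1 is filled, and in the genotype comparisons nearly all are filled and lie below the grey band.

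Markers of germ cells and of somatic tissues moved with the genotype. All 16 germline markers fell in glp-1 in each of the 4 comparisons, with medians of -3.11 at L3 and -5.07 on day 8 under EV. Of all genes, 23.2% fell and 33.9% rose at L3 under EV, and 26.5% fell and 28.9% rose on day 8. Under RNAi 22% of all genes fell at L3 and 25.1% on day 8. The log2 of the summed intensity of the germline markers was 13.99 to 14.08 in L3 WT EV against 10.998 to 11.20 in L3 glp-1 EV, and 14.81 to 15.16 against 10.34 to 10.37 on day 8. In day 8 glp-1 EV worms, gld-1 (4.02), him-3 (4.32), htp-3 (4.39), syp-2 (4.72) and mex-5 (4.79) lay below the array medians. The other germline markers lay above them, cgh-1 (8.54), car-1 (8.39) and nos-3 (7.16) being the highest. Of the 8 oocyte and eggshell markers 6 fell in each comparison, all but the eggshell genes perm-2 and perm-4, and its summed level was 13.59 to 13.86 in L3 WT EV, 12.47 to 13.67 in L3 glp-1 EV, 15.33 to 15.58 in day 8 WT EV and 15.18 to 15.21 in day 8 glp-1 EV. All 6 sperm markers fell at L3 under EV (median -1.51), and none did on day 8, where 2 rose, a share near that of all genes. Their summed level was 14.15 to 14.54 against 13.05 to 13.50 at L3 and 7.21 to 8.00 against 8.22 to 8.61 on day 8.

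Somatic markers went the other way. Of all genes, 33.9% rose at L3 and 28.9% on day 8 under EV, and 28.8% and 28.7% under RNAi. All 8 body wall muscle markers rose in all 4 comparisons, with medians of 0.44 at L3 and 2.42 on day 8 under EV, and the log2 of their summed intensity was 15.17 to 15.23 in L3 WT EV, 15.52 to 15.56 in L3 glp-1 EV, 11.43 to 11.59 in day 8 WT EV and 13.46 to 13.87 in day 8 glp-1 EV. Intestine markers rose for 6 of 7 at L3 and 7 of 7 on day 8 under EV, with summed levels of 14.87 to 14.91 against 15.11 to 15.21 and of 13.44 to 13.63 against 14.90 to 15.05. Neuron markers rose for 9 of 10 at both ages under EV, with summed levels of 11.95 to 11.99 against 12.43 to 12.52 and of 11.38 to 11.63 against 12.57 to 13.09. Hypodermis markers rose for 4 of 7 at L3 (13.60 to 13.76 against 14.06 to 14.23), and on day 8 3 rose and 1 fell (10.85 to 11.18 against 11.07 to 11.63). The proteasome genes thus fell in the arrays in which all 16 germline markers fell and most somatic markers rose. For the proteasome genes and for the germline markers, the day 8 change under EV was the larger one by its median. The part of these markers in the proteasome result was not tested.

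**Figure D5:**
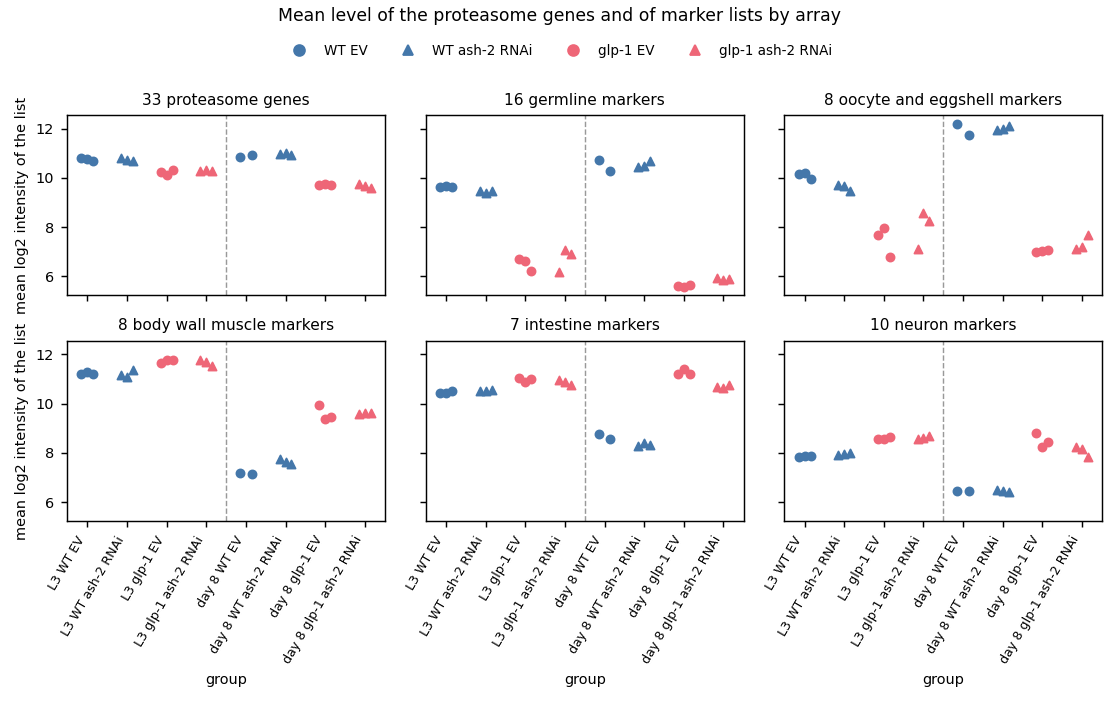
Mean log2 intensity in each array of the 33 proteasome genes and of 5 marker lists, on a shared vertical axis, with groups on the x axis, circles for EV, triangles for ash-2 RNAi, blue for WT and red for glp-1. The proteasome genes and the germline and oocyte lists are lower in glp-1 at both ages, the muscle, intestine and neuron lists are higher, and the proteasome gap is the narrowest of those on day 8.

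Genes of the wider ubiquitin pathway mostly fell as well. Beside genes that tag substrates for the proteasome or remove the tag, the list holds others, such as cdc-48.1, ufd-1, rad-23 and dss-1. Of 66 listed ubiquitin pathway genes 47 had a probe set naming them alone. Under EV 31 fell and 1 rose at L3 (median -0.41), and 33 fell and 2 rose on day 8 (median -0.81). The shares that fell were 66% and 70.2%, beside 23.2% and 26.5% of all genes. At L3 the smallest adjusted p belonged to the deubiquitinase otub-1 (-1.05), the cullin cul-6 (1.08) and the AAA ATPase cdc-48.3 (-0.89). On day 8 it belonged to uev-3, a ubiquitin-conjugating enzyme variant (-2.78), the proteasome-bound deubiquitinase usp-14 (-2.17) and the shuttle-type protease ddi-1 (-1.95), which in worms cleaves and so activates the proteasome-inducing form of the transcription factor SKN-1. Under ash-2 RNAi 26 fell and 1 rose at L3, led by otub-1 (-0.96), cul-6 (0.96) and usp-14 (-0.82). On day 8 under RNAi 34 fell and 5 rose, led by uev-3 (-2.83), usp-14 (-2.11) and the CDC-48 cofactor gene ubxn-1 (-1.65). Of all genes under RNAi, 22% fell and 28.8% rose at L3, and 25.1% fell and 28.7% rose on day 8. In the genotype by age interaction under EV, 26 of the 47 were lower and 1 higher, beside 28.2% and 25.8% of all genes. They were led by ddi-1 (-1.47), usp-14 (-1.24) and ubh-4 (-1.21), the gene of a proteasome-bound deubiquitinase. Of these genes cul-6 and usp-14 were read at shared probe sets.

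Under ash-2 RNAi 4 of the 47 (8.51%) rose in day 8 glp-1 worms, a share near the 7.79% of all genes that rose there, and none fell. They were ddi-1 (0.50, adjusted p = 0.00902), ubh-4 (0.49, adjusted p = 0.0398), the ligase hecd-1 (0.35, adjusted p = 0.0460) and uev-1 (0.45, adjusted p = 0.0464), by limma. None of the 47 passed in the other 3 RNAi comparisons. For ddi-1 the difference between ages in the glp-1 response passed as well (0.55, adjusted p = 0.00572).

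The COP9 signalosome and the translation initiation factor eIF3 share their subunit plan with the proteasome lid. Of 6 measured COP9 genes 4 (66.7%) fell at L3 and 5 (83.3%) on day 8 under EV, beside 23.2% and 26.5% of all genes, with changes of -0.53 and -1.59 for csn-6, -0.90 and -1.41 for csn-3, and -0.64 and -1.18 for csn-5, the deneddylase. Of 9 measured eIF3 genes 3 (33.3%) fell at L3 under EV, eif-3.I (-0.44), eif-3.F (-0.38) and eif-3.C (-0.24), and all 9 fell on day 8, with the smallest adjusted p for eif-3.I (-4.02), eif-3.E (-2.21) and eif-3.D (-1.46). Under ash-2 RNAi the smallest adjusted p belonged to csn-6 (-0.69), csn-3 (-0.65) and csn-5 (-0.55) at L3 and again to csn-6 (-1.47), csn-5 (-1.19) and csn-3 (-1.08) on day 8. At L3 under RNAi eif-3.F (-0.50) and eif-3.D (-0.31) fell, or 22.2% of the 9 eIF3 genes beside 22% of all genes, so the share was that of the background. On day 8 under RNAi all 9 fell (25.1% of all genes), and eif-3.I (-4.21), eif-3.E (-2.25) and eif-3.D (-1.34) led. Their genotype by age interactions under EV were led by csn-4 (-1.93), csn-6 (-1.05) and csn-1 (-1.35) and by eif-3.I (-3.59), eif-3.E (-2.03) and eif-3.D (-1.33). The eIF3 genes named here and csn-1 were read at shared probe sets. The CCT chaperonin, another large complex of single-copy subunits that folds actin and tubulin, had 4 of 8 genes (50%) lower at L3 and 5 of 8 (62.5%) on day 8 under EV. All of these CCT calls were read at shared probe sets. None of these lists had a gene that rose in the 4 genotype comparisons.

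Day 8 and L3 levels are given side by side without a test, because the ages were not on a common scale. In WT EV the group mean on day 8 was above that at L3 for 8 of 9 lid genes (median difference 0.67), 5 of 6 ATPase genes (0.25) and 3 of 4 other base genes (0.28), and for 1 of 7 alpha (-0.21) and 2 of 7 beta genes (-0.09). The exception in the lid was rpn-6.2, at -1.85. In glp-1 EV it was above for 4 of 9 lid genes (-0.02), none of the 6 ATPase genes (-0.44), 1 of 4 other base genes (-0.53) and none of the alpha (-0.91) or beta genes (-0.67). In both genotypes the lid had the highest median difference and the alpha ring the lowest. These directions depended on the scale. Measured above the array median, mean levels in WT EV were higher on day 8 than at L3 in every subcomplex, the alpha (5.37 to 6.19) and beta rings (5.41 to 6.32) included. In glp-1 EV they were then higher for the ATPases (4.31 to 4.63), other base genes (3.82 to 4.30), lid (3.81 to 4.48) and beta ring (5.15 to 5.27) and lower for the alpha ring (5.03 to 4.83).

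Of the 33 genes 21 were read at probe sets flagged as shared by the suffix of their names, so part of their signal may come from other transcripts. The annotation names 1 gene for each, and whether those transcripts belong to other genes was not tested. Leaving such probe sets out kept 13 genes, 12 at the same probe set and rpt-1 at its other, dimmer one, of which 12 and 10 fell at L3 under EV and RNAi and 13 fell in each day 8 comparison. For the 6 genes with 2 probe sets (rpt-1, rpt-2, pbs-3, pbs-7, rpn-2 and rpn-10), both sets read lower in glp-1 in all 4 comparisons, though by different amounts. At L3 under RNAi the dimmer sets of pbs-3 (-0.23, adjusted p = 0.0768) and rpn-2 (-0.26, adjusted p = 0.0634) did not pass by limma. On day 8 under EV the sets of pbs-3 read -1.29 and -0.64, and those of rpn-2 read -1.39 and -1.86. The last value came from a dim set (mean log2 level 5.64) and had an SE of 0.36.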

How the data were processed

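The deposited values were log2 intensities of 22548 probe sets on 23 arrays, which the authors made by RMA, as the submitters' processing notes name it. The version, settings and chip definition behind it were not stated in the sources used here. Probe sets were named through the platform annotation with symbols updated from RefSeq (WBcel235), which left 20766 with 1 gene, 887 with several and 895 with none. Nothing was renormalised. Probe sets of each age were fitted in limma 3.58.1 (R 4.3.3) with a mean per group and empirical Bayes, two-sided, and p-values were adjusted by Benjamini-Hochberg over all probe sets; interactions with age used all 23 arrays. RMA draws the arrays it normalises together towards 1 distribution, so a shift of most genes one way would be reduced. Arrays were assigned by their titles. Same-numbered arrays deviated together in the L3 WT RNAi comparison (correlations 0.245, 0.142 and 0.487 over probe sets), but RNAi replicate 2 matched another number better. No member passed there with or without a block. Each RNAi array matched its own number best in L3 glp-1 (0.121, 0.291 and 0.0561). So did each glp-1 array against WT at L3 under EV (0.199, 0.150 and 0.0971). Whether the numbers mark pairs is therefore not settled. The members and gene lists were chosen with earlier results of these data known. By the naming rule, all members were named by role, per-array values were given for rpn-6.1, rpn-6.2, pbs-1, pbs-2, pbs-5 and the 3 passing members with the smallest adjusted p in each comparison, and the 3 passing genes with the smallest adjusted p were named from the ubiquitin, COP9 and eIF3 lists; uev-1 was named after its values were seen. The fits were tested on simulated data for the RNAi comparisons in WT, with 50 probe sets changed per size. Of changes of 0.25 log2 units, 0 were recovered at either age. Of changes of 0.5, 11 were recovered at L3 and 3 on day 8. Of changes of 1, 44 and 33 were recovered, and of changes of 2, 49 at each age. Small RNAi effects could therefore be missed. Alternatives covered normalisation, centring, a filter on the dimmest 40% of probe sets, shared and averaged probe sets, the variance model, pairing, the arrays fitted and each array left out.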

Additional observations from a re-analysis of the deposited data

Results flagged for a closer look

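The difference between glp-1 and WT under EV changed between L3 and day 8 for 30 genes by the interaction test in limma (adjusted p under 0.05), and these were set apart for that reason. In the alpha ring the interactions were -0.96 for pas-1, -0.60 for pas-2, -0.44 for pas-3, -0.64 for pas-4, -0.63 for pas-5, -0.36 for pas-6 and -2.27 for pas-7. In the beta ring they were -0.67 for pbs-1, -1.02 for pbs-2, -0.86 for pbs-3, -0.47 for pbs-4, -0.69 for pbs-6 and -0.33 for pbs-7. The other, dimmer probe set of pbs-3 did not pass (-0.29, adjusted p = 0.198). Among the ATPases they were -0.66 for rpt-1, -0.72 for rpt-2, -0.72 for rpt-3, -0.76 for rpt-4, -0.96 for rpt-5 and -0.80 for rpt-6. Of the other base genes, rpn-1 had -0.82, rpn-2 -0.81 and rpn-13 -0.52. In the lid they were -0.52 for rpn-3, -0.66 for rpn-5, -0.57 for rpn-6.1, -0.40 for rpn-7, -0.54 for rpn-8, -1.16 for rpn-9 and -1.48 for rpn-11, and 0.86 for rpn-6.2, the only one above 0, whose glp-1 arrays lay near the array medians at both ages, so that its sign cannot be read as a smaller difference on day 8. The germline markers moved the same way (13 of 16 with a lower interaction, median -1.47), beside 28.2% of all genes. All 8 muscle markers moved the other way (median 1.95), beside 25.8% of all genes. Other lists did not all follow this split. The summed level of the sperm markers was lower in glp-1 EV than in WT EV at L3 (13.05 to 13.50 against 14.15 to 14.54). On day 8 it was higher (8.22 to 8.61 against 7.21 to 8.00). Hypodermis markers were mixed. In glp-1 EV against WT EV, lin-26 read 9.84 against 9.58 at L3 and 7.70 against 10.65 on day 8. For col-19 the levels were 12.44 against 12.28 and 10.51 against 7.43. The part of these markers in these values was not tested.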

How the results depend on the processing

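No call on a proteasome gene changed direction under any alternative run. Quantile normalisation within each age gave median changes in glp-1 against WT of -0.54 (EV) and -0.47 (RNAi) at L3 and -1.33 and -1.34 on day 8. Centring on array medians, which shifted all probe sets by 0.10 at L3 under EV, gave -0.35, -0.33, -1.21 and -1.32, and medians of -0.84 for the genotype by age and -0.048 for the RNAi by age interaction in glp-1. With shared probe sets left out (13 genes remained), 12, 10, 13 and 13 genes fell, the L3 RNAi median was -0.50, 11 genes passed the genotype by age interaction (median -0.52), the day 8 WT RNAi median was 0.13 and no gene passed RNAi in day 8 glp-1. That last count was 2 with averaged probe sets, 4 with all 23 arrays in the fit, 0 with only the arrays compared and 0 with a replicate block. With all 23 arrays, 1 gene passed the RNAi by genotype interaction on day 8, and the replicate block moved that median to 0.17. The block changed no other count by over 1.5 times.

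With each array left out in turn, 28 to 30 genes passed in glp-1 against WT at L3 under EV, 24 to 28 under RNAi, 30 to 33 on day 8 under EV and 33 under RNAi, and 24 to 30 passed the genotype by age interaction (median -0.70 to -0.58). RNAi called 0 to 1 gene in day 8 glp-1 (pas-7 in place of rpn-5 without RNAi replicate 1), and its interaction with age in glp-1 called 0 to 2 (median -0.16 to -0.052). Its medians ran from 0.031 to 0.13 in day 8 WT, from 0.030 to 0.12 for the interaction with age in WT, from -0.12 to -0.024 for that with genotype at L3 and from 0.034 to 0.17 for that on day 8. Where a group lost 1 of its 2 arrays, the lone array was taken to vary like the other groups. A fit of the 6 L3 WT arrays with the block, chosen after seeing the data, called 0 genes.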
